A study of Rattus norvegicus with 36 samples.

Results

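The genes described here encode the subunits of hypoxia-inducible factor (HIF), the hydroxylases that mark it in an oxygen-dependent way, and its closest regulators. They were chosen by name and not by their measured values: Hif1a, Epas1, Hif3a and Arnt for the subunits, Hif1an, Egln1, Egln2 and Egln3 for the hydroxylases, Vhl for the ligase receptor and Cited2 for a competitor of HIF. Of these 10 genes, 9 have a row among the 24275 genes of the tables, and Egln1 was not analysed here.

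The libraries were made from H9C2, an established rat cell line derived from embryonic heart and classed as cardiac myoblast. Cells received 25 nmol/L of a synthetic RNA: a mimic control (MC), a mimic of miR-125b, or 1 of 4 mimics that differ from miR-125b at the 3′ end (isomiRs), called Plus A and, for 1 to 3 bases removed, Trim A, Trim AG or Trim AGU. After 24 h of transfection the cells were kept for 24 h in hypoxia (below 0.2% oxygen) or in normoxia. Poly-A RNA was sequenced without strand information, and 33 libraries with read counts in 11 groups of 3 were used: hypoxia with MC and with each of the 5 mimics of the miR-125b family, and normoxia with those 5 mimics. The cells carry no engineered allele. The study's methods put the hypoxic cells in serum-free, low-glucose medium and the normoxic cells in fresh medium, so low oxygen and the change of medium cannot be told apart in any comparison of hypoxia with normoxia. The normoxia MC group entered only as the authors' group mean, since its single libraries were not analysed here. No source used here says that the 3 libraries of a group came from separate cultures, so p-values measure the spread between these libraries, which may be technical.

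HIF is a pair of proteins, an oxygen-labile α subunit (HIF-1α from Hif1a, HIF-2α from Epas1, HIF-3α from Hif3a) and the stable β subunit from Arnt. When oxygen is present, prolyl hydroxylases encoded by Egln1, Egln2 and Egln3 mark the α subunit, VHL recognises the mark and brings an elongin and cullin ligase that sends the protein to the proteasome, and the asparaginyl hydroxylase from Hif1an blocks the contact of HIF with its coactivators. Oxygen acts on the α subunit mainly as a protein, so the transcript levels given here do not measure HIF activity. Vhl, Egln2 and Hif1an stand on the degrading or silencing side of the pathway, Egln3 and Cited2 are themselves known to be induced by HIF in many cells, and CITED2 competes with HIF for the coactivators p300 and CBP.

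The mimics are shown because every group was defined by them. The sequence of miR-125b is that of rno-miR-125b-5p in RefSeq (build GRCr8, chromosome 11, 29732588 to 29732609, plus strand). The isomiRs were written from it by adding or removing the bases in their names at the 3′ end. Capitals mark the seed, bases 2 to 8, which all 5 share.
miR-125b: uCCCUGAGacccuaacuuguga
Plus A: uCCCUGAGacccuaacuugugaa
Trim A: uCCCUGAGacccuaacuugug
Trim AG: uCCCUGAGacccuaacuugu
Trim AGU: uCCCUGAGacccuaacuug

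Library totals lay between 28361216 and 42672584 counts, so 1 read is worth 0.0234 to 0.0353 CPM (counts scaled to the library total). The 3 Hypoxia Trim AG libraries were the deepest, at 39940087 to 42672584 counts, against at most 34505938 in the others. The part of this depth in the comparisons of that group was not tested. The library Hypoxia Trim AGU replicate 2 stood apart: 16981 genes had a count in it against 18342 to 19451 in the other libraries. Among the normoxia libraries, Cav1, the gene of the membrane coat protein caveolin-1, was at 268.9 CPM in Plus A replicate 1 against 98.0 and 98.3 in the other two Plus A libraries. It was at 102.3 CPM in miR-125b replicate 1 against 282.0 and 262.9 in the other two miR-125b libraries. These libraries, both numbered 1, thus each lie at the level of the other group, and values without them are given beside the results. Of 9 cardiac muscle markers, 4 averaged at least 1 CPM (Gata4, Mef2c, Tnnt2 and Actc1), whereas Myh6, Nkx2-5, Tbx5, Nppa and Ryr2 did not. Actc1 averaged 3.54 CPM only through its highest group, as its group means ran from 0.149 to 33.3 CPM. Of 5 skeletal myoblast markers, Myod1, Myog and Des averaged at least 1 CPM, and Myf5 and Pax7 did not. Of 5 fibroblast markers, Col1a1, Col1a2, Dcn and Thy1 did, and Pdgfra did not. The 1 endothelial marker found, Tek, averaged 1.68 CPM. Of 4 leukocyte markers, Cd68 averaged 1.21 CPM and the others less than 1 CPM. The 3 epithelial markers summed to at most 0.336 CPM. The sum of the 5 skeletal myoblast markers was 406.1 to 422.9 CPM in hypoxia with MC, 38.2 to 108.1 CPM in hypoxia with the 5 mimics and 161.4 to 195.3 CPM in normoxia with the same mimics. The sum of the 9 cardiac markers was 385.3 to 406.1, 42.9 to 94.1 and 56.5 to 99.2 CPM in the same order. Single genes made up most of both MC sums: Myog, with a group mean of 351.7 CPM there, and Tnnt2, with 306.6 CPM. Myod1 had its highest group mean, 137.9 CPM, in another group, so the myoblast list did not shift as a whole. The part of these marker differences in the results that follow was not tested.

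Of the 9 genes, 6 were well expressed and 3 were close to absent. Compared per transcript length by the deposited FPKM, averaged over all 33 libraries, Cited2 stood highest at 95.8 FPKM, followed by Egln2 at 39.3, Hif1a at 32.1, Vhl at 26.0, Hif1an at 12.2 and Arnt at 9.25 FPKM. Hif1a was thus the 1 well-expressed α subunit, Egln2 the 1 well-expressed prolyl hydroxylase of those analysed, and Arnt the lowest of the expressed genes. Epas1 had at most 9 reads in any library and 90 in all, Egln3 at most 9 and 65 in all, and Hif3a 9 reads in 4 of 33 libraries. The 6 expressed genes passed the filter on low counts in every comparison, and the 3 sparse ones passed in none.

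**Figure D1:**
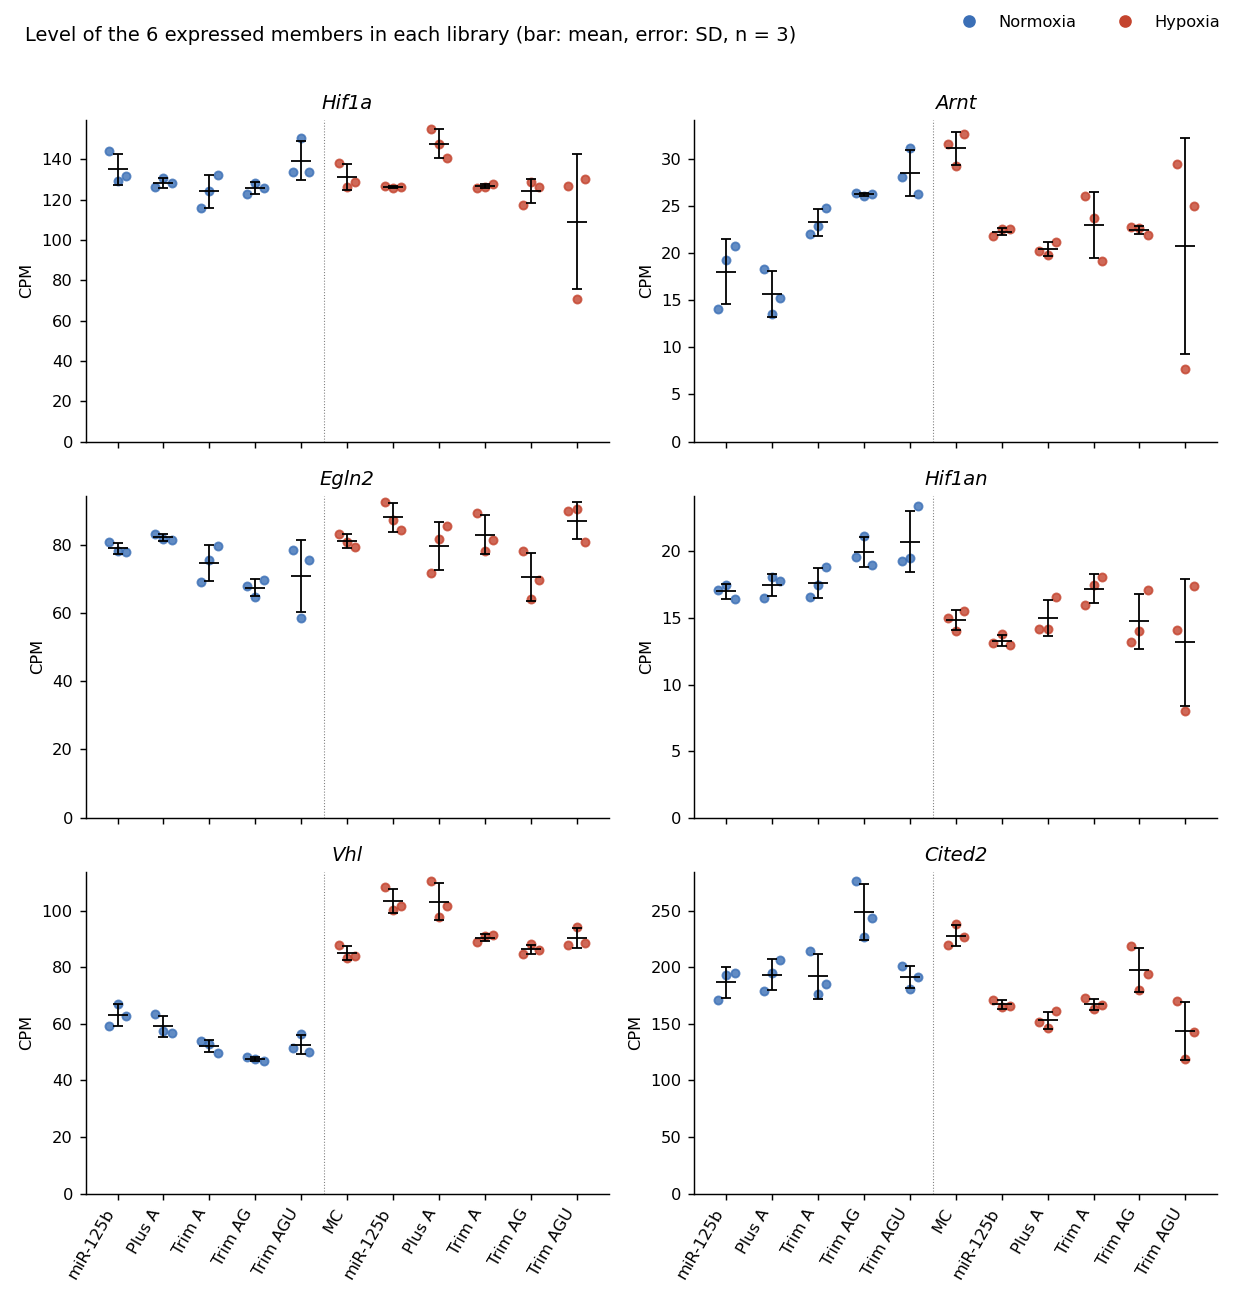
Level in CPM (linear axis from 0) of the 6 expressed genes in each of 33 libraries; points are libraries, blue for normoxia and red for hypoxia, and bars give the mean and SD of 3. Vhl is higher in all hypoxia libraries (at least 83.3 CPM) than in all normoxia libraries (at most 67.1 CPM), and Hypoxia Trim AGU replicate 2 is the low point of Hif1a, Arnt, Hif1an and Cited2.

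Among the 6 genes tested, Vhl differed most with oxygen. It was higher in hypoxia than in normoxia under each of the 5 mimics, by 1.55-fold to 1.82-fold, and it passed both parts of the call (Benjamini-Hochberg adjusted p below 0.05 in edgeR's quasi-likelihood test, and at least 1.5-fold) in all 5 comparisons. No other tested gene of the 6 was called in any of them. In these bulk samples a change in the mix of cells and a change of RNA per cell cannot be told apart. Cited2 was lower in hypoxia in all 5 comparisons, and in 4 of them it passed on adjusted p alone. Hif1an was lower in all 5 and passed on adjusted p in 3. Hif1a and Egln2 stayed within 1.27-fold of their normoxic level in all 5.

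The called count was thus 1 of 6 under each mimic. Over all genes tested, the share called was 20.9% under miR-125b and 22.8% under Plus A, and 26.5%, 32.8% and 27.0% under the isomiRs Trim A, Trim AG and Trim AGU, so 1 of 6 is near that background and is no result about the set. On adjusted p alone, 4 of 6 passed under miR-125b, 3 under Plus A, 2 under Trim A, 4 under Trim AG and 1 under Trim AGU. The shares of all genes passing in this way were 50.8%, 49.2%, 47.6%, 54.7% and 30.2%. The median log2 fold change of the 6 lay between −0.35 and −0.03, and that of all genes between 0.00 and 0.02.

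Vhl encodes the substrate receptor of the ligase that degrades the α subunit (ENSRNOG00000010258, chromosome 4, 145580799 to 145587845, plus strand, coordinates as in the tables, whose genome build is not given in the sources used here). Under miR-125b, Vhl was at 59.3, 67.1 and 62.8 CPM in normoxia and at 108.2, 100.3 and 101.7 CPM in hypoxia. Under Plus A it was at 63.4, 57.3 and 56.8 CPM in normoxia and at 110.5, 97.7 and 101.5 CPM in hypoxia. Under Trim A the values were 53.9, 53.0 and 49.8 CPM against 89.0, 91.0 and 91.5 CPM. In each pair the 3 hypoxia libraries lay above the 3 normoxia libraries with a wide gap. Under Trim AG, Vhl was at 48.3, 47.4 and 46.9 CPM in normoxia and at 84.7, 88.1 and 86.1 CPM in hypoxia. Under Trim AGU it was at 51.4, 56.5 and 50.0 CPM in normoxia and at 88.0, 94.3 and 88.7 CPM in hypoxia. The 15 hypoxia libraries with a mimic of the family ranged from 84.7 to 110.5 CPM and the 15 normoxia libraries from 46.9 to 67.1 CPM, without overlap.

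The log2 fold changes of Vhl were 0.63 (SE 0.0574, adjusted p = 2.0e-05) for miR-125b, 0.70 (SE 0.0665, 2.4e-05) for Plus A and 0.72 (SE 0.0721, 9.1e-05) for Trim A. They were 0.87 (SE 0.0710, 1.6e-05) for Trim AG and 0.83 (SE 0.136, 0.00500) for Trim AGU. Leaving out any single library kept every one of these calls, the weakest being Trim AGU without Normoxia Trim AGU replicate 3 at an adjusted p of 0.0385. Without the library that stood apart, Trim AGU gave 0.72 (adjusted p = 6.5e-04). Without both normoxia libraries numbered 1, miR-125b gave 0.59 and Plus A 0.72. Hypoxia with MC, at 88.0, 83.3 and 83.8 CPM, also lay above every normoxia library, but its own normoxia libraries were not analysed here.

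**Figure D2:**
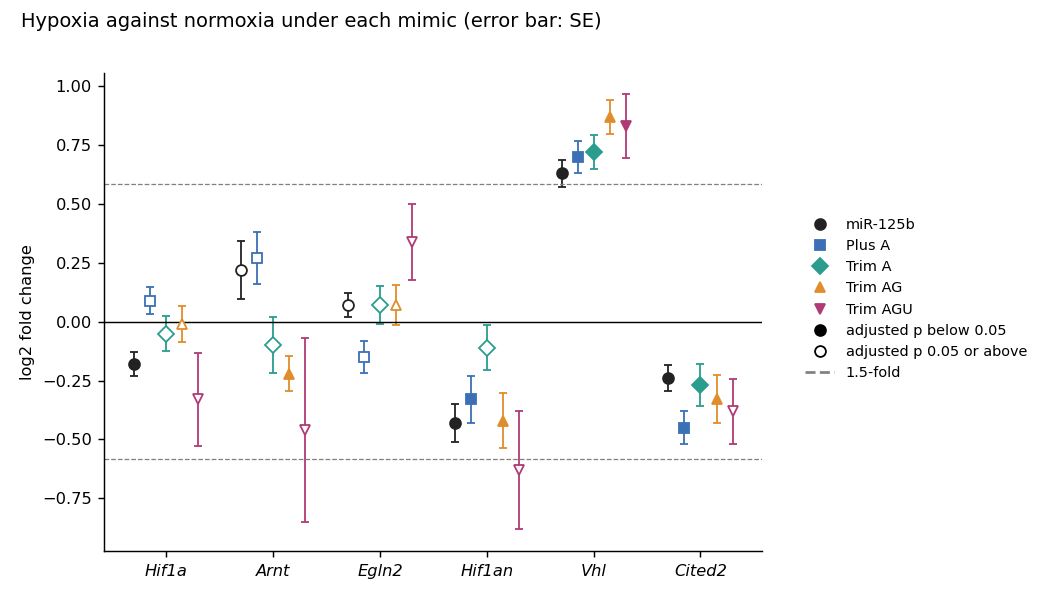
Log2 fold change of hypoxia against normoxia (vertical axis) for the 6 expressed genes under each of 5 mimics; error bars are SE, filled points have an adjusted p below 0.05 and dashed lines mark 1.5-fold. The 5 Vhl points, from 0.63 to 0.87, are the only filled points beyond a dashed line.

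Among the subunits, Hif1a (ENSRNOG00000008292, chromosome 6, 96810907 to 96856052, plus strand), the α subunit of HIF-1, was nearly flat. Its libraries ranged from 115.9 to 150.5 CPM in normoxia and from 70.6 to 155.2 CPM in hypoxia, where the lowest was the library that stood apart, and the medians were 129.2 and 126.6 CPM. It passed on adjusted p only under miR-125b, with a log2 fold change of −0.18 (SE 0.0519, adjusted p = 0.0161), with libraries at 129.2 to 143.9 CPM in normoxia and at 125.5 to 126.6 CPM in hypoxia. That pass was lost without any 1 of the 3 Hypoxia miR-125b libraries, at an adjusted p of 0.0502 to 0.0631, and with all libraries in 1 fit (0.256). Without the normoxia libraries numbered 1 it was −0.13 (0.0130). Under the other mimics the log2 fold change was 0.09 (Plus A), −0.05 (Trim A), −0.01 (Trim AG) and −0.33 (Trim AGU), the last being −0.14 without the library that stood apart.

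Arnt (ENSRNOG00000031174, chromosome 2, 196594303 to 196651179, plus strand), the β subunit that all α subunits pair with, had fitted changes of either sign. In the fits of each pair with every library kept, only the Trim AG value passed on adjusted p. The log2 fold change with hypoxia was 0.22 under miR-125b and 0.27 under Plus A (adjusted p = 0.156 and 0.0656), −0.10 under Trim A (0.517), −0.22 under Trim AG (SE 0.0742, 0.0316) and −0.46 under Trim AGU (SE 0.389, 0.395). The Trim AG value rested on libraries at 26.4, 26.0 and 26.2 CPM in normoxia against 22.8, 22.6 and 21.9 CPM in hypoxia, which do not overlap. Its pass was lost without any 1 of the Normoxia Trim AG libraries or without Hypoxia Trim AG replicate 3 (adjusted p of 0.0801 to 0.152), and with all libraries in 1 fit (0.420). Under Trim AGU the hypoxia libraries were at 29.4, 7.72 and 25.0 CPM, and without the lowest of them the log2 fold change was −0.09. Without the normoxia libraries numbered 1, Arnt under Plus A passed on adjusted p at 0.37 (SE 0.0930, adjusted p = 0.0107) and under miR-125b was at 0.07.

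Of the hydroxylases, Hif1an (ENSRNOG00000014234, chromosome 1, 264309214 to 264319267, plus strand), the asparaginyl hydroxylase also called FIH and a gene the study examined as a target of miR-125b, was lower in hypoxia. Under miR-125b it was at 16.4 to 17.5 CPM in normoxia and at 13.0 to 13.8 CPM in hypoxia, a log2 fold change of −0.43 (SE 0.0791, adjusted p = 0.00144) that held without each library in turn. Under Trim AG it was at 19.0 to 21.2 CPM against 13.2 to 17.1 CPM, a change of −0.42 (SE 0.116, 0.0126). These groups also did not overlap, but the pass was lost without Normoxia Trim AG replicate 2 (adjusted p = 0.0561). Under Plus A, 16.5 to 18.1 CPM stood against 14.2 to 16.6 CPM, so the groups touched, and the change was −0.33 (adjusted p = 0.0212), lost without Normoxia Plus A replicate 2 or 3 or Hypoxia Plus A replicate 1 or 2 (0.0592 to 0.0852) and with all libraries in 1 fit (0.0769). Without the normoxia libraries numbered 1, the values were −0.39 (0.0128) under Plus A and −0.43 (0.00277) under miR-125b. Trim A gave −0.11 (0.373). Trim AGU gave the largest value, −0.63 (SE 0.251), but did not pass (0.0922), and it was −0.42 (0.0593) without the library that stood apart. With all libraries in 1 fit, which shares the spread over groups, it was called at −0.64 (4.6e-04).

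Egln2 (ENSRNOG00000020947, chromosome 1, 83969457 to 83977236, minus strand), the prolyl hydroxylase PHD1, passed in none of the 5 comparisons. Its log2 fold change was 0.07 under miR-125b, Trim A and Trim AG, −0.15 under Plus A and 0.34 under Trim AGU, with adjusted p from 0.0928 to 0.486. Its libraries ranged from 58.6 to 83.3 CPM in normoxia and from 64.2 to 92.6 CPM in hypoxia. The gene overlaps Cyp2t1 on the opposite strand over 103 bases, and since the libraries carry no strand the reads there cannot be assigned, but Cyp2t1 averaged 0.222 CPM.

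Cited2 (ENSRNOG00000056940, chromosome 1, 12823363 to 12825786, plus strand) was lower in hypoxia, although HIF is known to induce it in other cells. Under Plus A it was at 178.8, 194.8 and 206.4 CPM in normoxia and at 151.5, 146.7 and 161.1 CPM in hypoxia. The log2 fold change was −0.45 (SE 0.0710, adjusted p = 6.2e-04), the largest of the 5 in size, and every hypoxia library lay below every normoxia library. Under miR-125b the libraries at 171.2, 193.2 and 195.3 CPM stood against 171.4, 164.6 and 165.5 CPM, with a change of −0.24 (SE 0.0542, 0.00482) and 1 hypoxia library within the normoxia range. Both held with each library left out. Without the normoxia libraries numbered 1 they were −0.52 (1.3e-04) under Plus A and −0.30 (1.2e-04) under miR-125b, and with all libraries in 1 fit the miR-125b value lost its pass (0.0609). Under Trim A the change was −0.27 (0.0316) and under Trim AG −0.33 (0.0230). The Trim A pass was lost without Normoxia Trim A replicate 1 or 3 or Hypoxia Trim A replicate 2 or 3 (up to 0.125). The Trim AG pass was lost without Normoxia Trim AG replicate 1 or 3 or Hypoxia Trim AG replicate 3 (up to 0.106). Trim AGU gave −0.38 and did not pass (0.0725), and it was −0.32 (0.0653) without the library that stood apart.

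The promoters of these genes are shown because HIF binds a short core, A or G followed by CGTG. RefSeq windows from 250 bases before to 50 after the start (build GRCr8) were found for all 10 genes, and the core was searched on both strands as ACGTG or GCGTG, where a palindromic CACGTG counts on both. It occurs in at least 1 window of 5 of 10 genes (Hif1a, Hif3a, Arnt, Egln1 and Cited2), and in 41.6% of 33469 promoter windows of the same length. Hif3a also has a window without the core, so the count per gene and the share per window are unlike measures. The Vhl window holds none, nor do those of Epas1, Hif1an, Egln2 and Egln3. A match is a description of letters and not of binding. The stretches printed lie at chr4:148327949-148328098 for Vhl, chr6:98359658-98359747 for Hif1a, chr1:14132113-14132172 for Cited2 and chr2:185686633-185686692 for Arnt, all on the plus strand and before the start, with the core in capitals.
Vhl: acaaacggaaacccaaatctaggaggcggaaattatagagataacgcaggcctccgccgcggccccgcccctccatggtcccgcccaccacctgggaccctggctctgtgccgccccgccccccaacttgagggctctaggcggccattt
Hif1a: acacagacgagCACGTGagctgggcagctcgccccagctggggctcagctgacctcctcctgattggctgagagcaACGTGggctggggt
Cited2: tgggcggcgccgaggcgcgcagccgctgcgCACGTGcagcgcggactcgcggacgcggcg
Arnt: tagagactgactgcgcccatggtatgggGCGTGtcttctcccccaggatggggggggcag

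Of 30 known HIF target genes, 29 were tested. In hypoxia against normoxia, 16 were called higher under miR-125b, 13 under Plus A, 14 under Trim A, 11 under Trim AG and 15 under Trim AGU. Of all genes tested, 9.34%, 10.0%, 12.0%, 15.0% and 13.6% were called higher in the same comparisons. Between 2 and 4 of the list were called lower, near the 11.5% to 17.8% of all genes called lower, and its median log2 fold change was 0.51 to 0.69. Hmox1, which encodes the haem-degrading enzyme heme oxygenase 1, was called higher in all 5 comparisons, by 3.36-fold to 11.3-fold. Bnip3, a mediator of mitophagy, was higher by 3.63-fold to 6.72-fold and Ankrd37, a small ankyrin repeat protein, by 1.77-fold to 5.01-fold, each in all 5. Edn1, the gene of endothelin 1, was called lower in 3.

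Of 15 partners of the VHL ligase and of HIF, 14 were tested, among them the elongins, Cul2, Rbx1, Ep300 and Crebbp. The number called in hypoxia against normoxia was 0 under miR-125b, 1 under Plus A, 2 under Trim A, 5 under Trim AG and 3 under Trim AGU. Beside the shares of all genes called, 20.9% to 32.8%, these counts are near or below the background. The median log2 fold change lay between −0.02 and 0.15. Siah1, a ubiquitin ligase known to act on prolyl hydroxylases, was the gene of this list called in at least 3 comparisons: it was higher in 4 of 5, by 1.35-fold to 1.69-fold over all 5. Cul2 and Ep300, the scaffold of the VHL ligase and a HIF coactivator, were called in none. Of the other measured subunits of the VHL ligase (Tceb1, Tceb2, Cul2 and Rbx1), only Tceb2, which encodes elongin B, was called, in 2 of 5.

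Against MC in hypoxia, the question was what a miR-125b mimic does to the pathway at a fixed oxygen level. Arnt was lower with all 5 mimics, at 0.665 to 0.759 of its MC level, and passed on adjusted p in 4. The Trim AGU value of Arnt, which did not pass, shrank to −0.12 on the log2 scale without the library that stood apart. Cited2 was lower with all 5, at 0.682 to 0.906 of its MC level, and passed in 4. Vhl lay 6.10% to 24.7% higher and passed with miR-125b and Plus A. Hif1an, which the study examined as a target, did not pass with miR-125b. The study itself reported lower Hif1an mRNA by RT-qPCR and lower protein by Western blot with the miR-125b mimic, which are other measures than these read counts. It does not state the oxygen level with those assays, so they may not match this comparison in hypoxia. Its figure caption does not list Hif1an among the regulated mRNAs. The 5 comparisons share the 3 MC libraries.

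The call, which also needs 1.5-fold, was met by 1 gene, Arnt with Plus A, and by none of the 6 with miR-125b, Trim A, Trim AG and Trim AGU. The share of all genes called was 24.8% with Plus A and 21.9%, 28.1%, 37.2% and 23.8% with the others. On adjusted p alone, 4 of 6 passed with miR-125b, and 4 with Plus A, and 3, 1 and 1 with the truncated isomiRs from the longest to the shortest, beside 59.5%, 56.6%, 52.1%, 59.4% and 29.9% of all genes. A count of 4 of 6 lies near its background share with miR-125b and Plus A, and none of these counts is a result about the set.

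**Figure D3:**
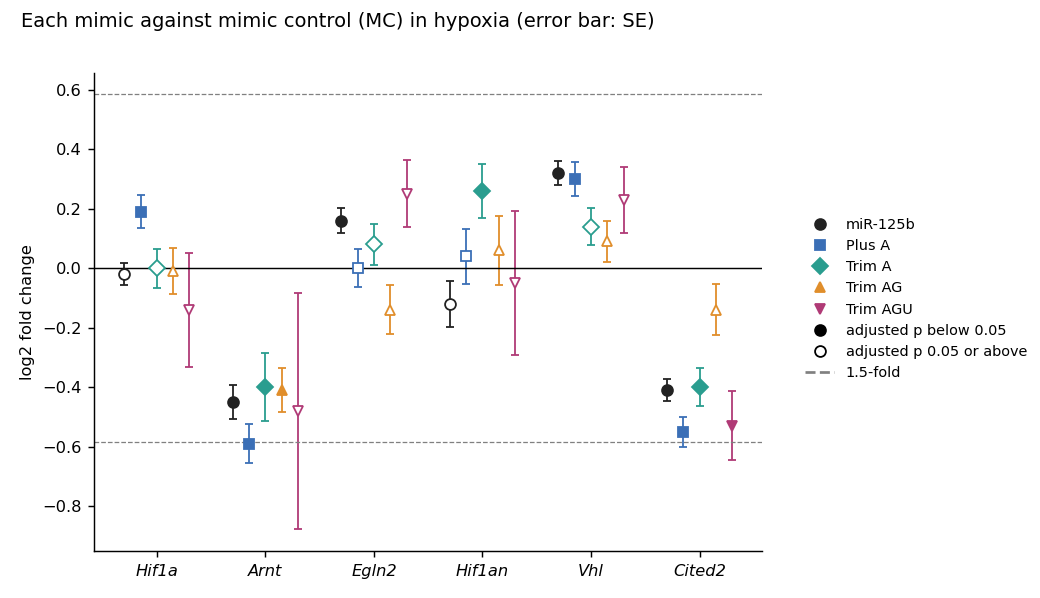
Log2 fold change of each mimic against MC in hypoxia (vertical axis) for the 6 expressed genes; error bars are SE, filled points have an adjusted p below 0.05 and dashed lines mark 1.5-fold. Arnt and Cited2 lie below 0 with all 5 mimics, and Arnt with Plus A, at −0.59, is the only point past 1.5-fold.

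Arnt was at 31.5, 29.2 and 32.6 CPM with MC, at 21.8, 22.5 and 22.5 CPM with miR-125b and at 20.2, 19.8 and 21.2 CPM with Plus A. The MC libraries lay above all of these. The log2 fold change was −0.45 (SE 0.0562, adjusted p = 4.2e-05) with miR-125b and −0.59 (SE 0.0660, 3.7e-05) with Plus A. The Plus A value sits at the 1.5-fold limit: it was −0.58 without Hypoxia MC replicate 1 and −0.56 without Hypoxia MC replicate 3 or Hypoxia Plus A replicate 2, short of the limit each time, with adjusted p still at most 4.1e-04. Trim A gave −0.40 (SE 0.114, 0.0186), lost without Hypoxia MC replicate 1 or 3 (0.0573 and 0.0696). Trim AG gave −0.41 (SE 0.0734, 0.00133). With all libraries in 1 fit, Arnt lost its pass with miR-125b (0.119), Trim A (0.155) and Trim AG (0.116). Trim AGU gave −0.48 with an SE of 0.398 and did not pass, and without the library that stood apart it was −0.12 (0.343).

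Cited2 was at 219.6, 237.9 and 226.4 CPM with MC, above every library of miR-125b, Plus A, Trim A and Trim AGU, the highest of which was at 172.4 CPM. The log2 fold change was −0.41 (SE 0.0366, adjusted p = 2.8e-06) with miR-125b, −0.55 (SE 0.0510, 9.7e-06) with Plus A and −0.40 (SE 0.0650, 0.00127) with Trim A. These 3 held with each library left out. Without Hypoxia Plus A replicate 3, the Plus A value reached the call at −0.59. Trim AGU gave −0.53 (SE 0.117, 0.0175). It was lost without any 1 MC library or Hypoxia Trim AGU replicate 3 (up to 0.0876), was called at −0.63 without Hypoxia Trim AGU replicate 1 and gave −0.46 (0.00355) without the library that stood apart. With Trim AG the libraries, at 218.5, 180.3 and 194.3 CPM, came close to those of MC, and the change of −0.14 did not pass (0.179).

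Vhl was at 83.3 to 88.0 CPM with MC, at 100.3 to 108.2 CPM with miR-125b and at 97.7 to 110.5 CPM with Plus A, with no overlap. The log2 fold change was 0.32 (SE 0.0406, adjusted p = 4.7e-05) with miR-125b and 0.30 (SE 0.0576, 0.00127) with Plus A, both kept without each library. For the truncated isomiRs it was 0.14 (Trim A), 0.09 (Trim AG) and 0.23 (Trim AGU) and did not pass. Their libraries were at 89.0 to 91.5 CPM, 84.7 to 88.1 CPM and 88.0 to 94.3 CPM in the same order.

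Hif1an was at 14.0 to 15.5 CPM with MC and at 13.0 to 13.8 CPM with miR-125b. These ranges do not overlap, but the log2 fold change of −0.12 (SE 0.0765) did not pass (adjusted p = 0.202). With Plus A, Trim AG and Trim AGU it was 0.04, 0.06 and −0.05. With Trim A it was 0.26 (SE 0.0920, 0.0427), higher than MC, and this was lost without any 1 MC library or without Hypoxia Trim A replicate 2 or 3 (0.0873 to 0.161), or with all libraries in 1 fit (0.124). Hif1a passed with Plus A alone, at 0.19 (SE 0.0552, 0.0124), from 126.4 to 138.3 CPM with MC to 140.5 to 155.2 CPM, lost without Hypoxia MC replicate 2 (0.0582) and with all libraries in 1 fit (0.181). Egln2 passed with miR-125b alone, at 0.16 (SE 0.0423, 0.00823), which held without each library but was lost with all libraries in 1 fit.

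Of the 29 HIF targets, 8 were called lower with miR-125b against MC in hypoxia, and 12 with Plus A, and 11, 10 and 10 with the truncated isomiRs from the longest to the shortest, while 1 to 3 were called higher. Of all genes, 12.5%, 14.4%, 15.7%, 20.2% and 12.4% were called lower in the same order, and 9.43% to 17.0% higher. The list's median log2 fold change was −0.30, −0.53, −0.43, −0.40 and −0.32 in the same order, and the medians of all genes lay between −0.02 and 0.00. Of the 14 partners tested, 1 to 5 were called in these comparisons, beside 21.9% to 37.2% of all genes.

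For normoxia, the authors' group means of 1 comparison, Plus A against MC, give values with no SD or n. The authors' mean of Arnt was 465.1 with Plus A and 921.2 with MC, which is −0.99 on the log2 scale. Their means of Cited2 were 5748.4 and 6916.4 (−0.27), of Hif1a 3810.5 and 3061.1 (0.32), of Egln2 2438.6 and 2035.2 (0.26), of Vhl 1755.4 and 1648.3 (0.09) and of Hif1an 518.9 and 546.5 (−0.07). Over the 13241 genes with an MC mean above 20, the median of this log2 ratio was −0.01 and its quartiles were −0.31 and 0.27. Arnt thus lay below the lower quartile and Hif1a above the upper, while Cited2 and the others lay between them. Arnt and Cited2 were lower with Plus A in these means, as in hypoxia, but the Cited2 value is within the spread of most genes, and no test was possible. The mean of normoxia Plus A includes replicate 1, whose Cav1 level was that of the miR-125b libraries.

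The isomiRs were set against miR-125b at the same oxygen level, in 8 comparisons of which the 4 in hypoxia share the Hypoxia miR-125b libraries and the 4 in normoxia the Normoxia miR-125b libraries. They differ from miR-125b by 1 added A or by 1, 2 or 3 bases removed at the 3′ end, all at the same dose and time. Over all 8, the call was met once, by Arnt, higher in Normoxia Trim AGU. Trim AG differed from miR-125b in the largest number of genes of the pathway, with 4 of 6 passing on adjusted p in normoxia and 3 of 6 in hypoxia. Of all genes, 38.5% and 41.4% passed with Trim AG in the same order, also the largest shares of the 4 isomiRs. With Trim AGU 2 passed in normoxia and 0 in hypoxia, with Plus A 0 in normoxia and 1 in hypoxia, and with Trim A 0 in both. None of these counts is a result about the set.

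In normoxia the share of all genes called was 0% (Plus A), 0.414% (Trim A), 13.9% (Trim AG) and 11.4% (Trim AGU), and on adjusted p alone 0%, 1.92%, 38.5% and 25.0%. In hypoxia it was 2.03%, 0.873%, 19.3% and 3.75%, and on adjusted p alone 15.9%, 2.19%, 41.4% and 4.15%. For Plus A in normoxia edgeR called 0 of 14781 genes with 404 at an unadjusted p below 0.05, DESeq2 called 1 gene, and none of the 6 genes of the pathway reached an unadjusted p below 0.05. Without both libraries numbered 1, edgeR called 166 genes there, and Arnt passed on adjusted p at −0.45 (SE 0.102, adjusted p = 0.0392). In that fit the Plus A libraries of Arnt were at 13.5 and 15.2 CPM and the miR-125b libraries at 19.2 and 20.7 CPM, while the libraries left out were at 18.3 and 14.1 CPM.

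**Figure D4:**
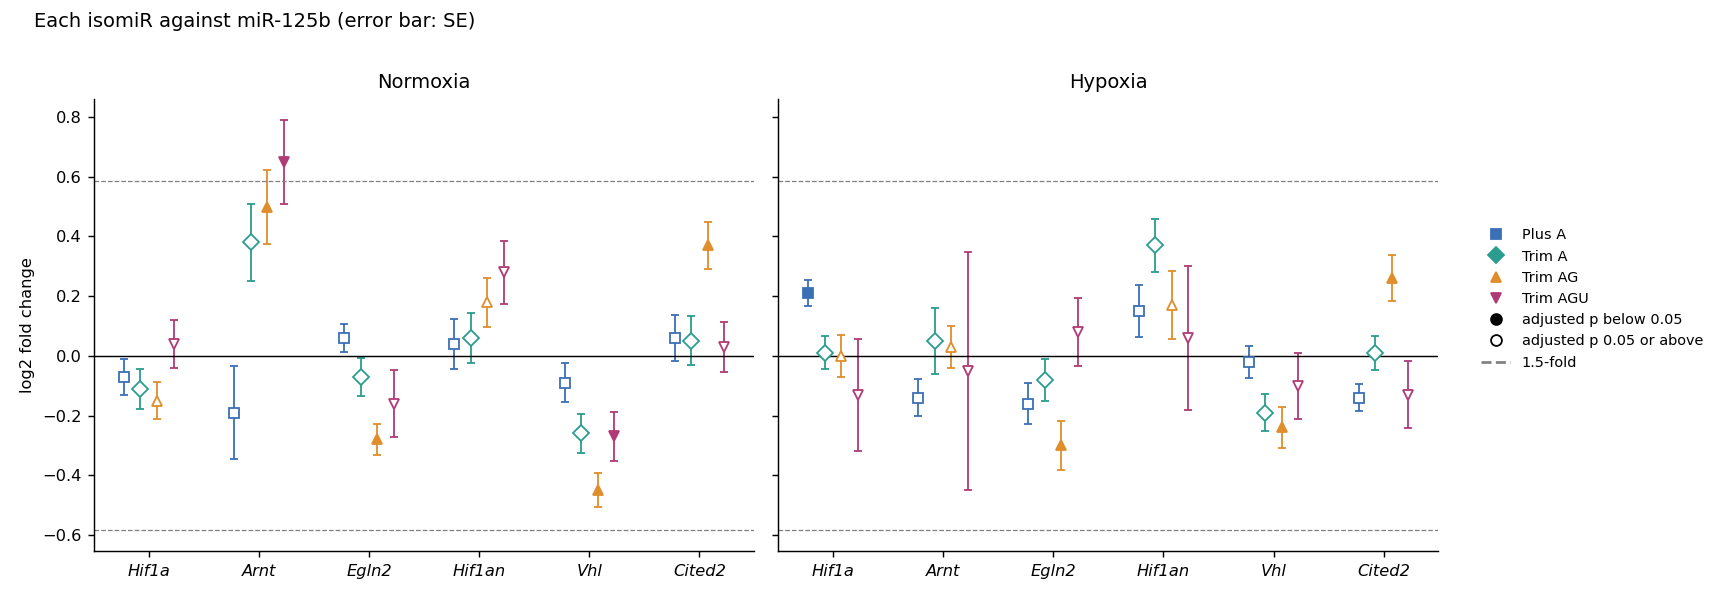
Log2 fold change of each isomiR against miR-125b in normoxia (left) and hypoxia (right) for the 6 expressed genes; error bars are SE, filled points have an adjusted p below 0.05 and dashed lines mark 1.5-fold. In normoxia Arnt reaches 0.65 with Trim AGU, and the Trim AG points of Vhl and Egln2 lie below 0 in both panels while those of Cited2 lie above.

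In normoxia Arnt was at 14.1, 19.2 and 20.7 CPM with miR-125b, at 26.4, 26.0 and 26.2 CPM with Trim AG and at 28.0, 31.1 and 26.3 CPM with Trim AGU, so both truncated isomiRs lay above all miR-125b libraries. The log2 fold change was 0.65 (SE 0.142, adjusted p = 0.00942) for Trim AGU. Without Normoxia miR-125b replicate 1, it was 0.50 (0.0161) and short of 1.5-fold. Trim AG gave 0.50 (SE 0.124, 0.0116), 0.35 (0.00612) without that library and 0.60, past 1.5-fold, without Normoxia miR-125b replicate 3. With all libraries in 1 fit the Trim AG value lost its pass (0.108). Trim A gave 0.38 and did not pass (0.158). In hypoxia none of the 4 isomiRs passed for Arnt, with −0.14 for Plus A and 0.05, 0.03 and −0.05 for the truncated isomiRs from the longest to the shortest. Without the library that stood apart, the Trim AGU value in hypoxia turned to 0.32 (SE 0.0901, 0.0441) and passed.

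The difference between these differences was tested as an interaction of oxygen and isomiR. For Arnt with Trim AG it was −0.48 (SE 0.148, adjusted p = 0.0333), and among the interactions of the 6 genes with the 4 isomiRs this was the 1 that passed. It was lost in 7 of 12 fits that each left out a library, among them every Hypoxia miR-125b and every Normoxia Trim AG library and Hypoxia Trim AG replicate 3 (adjusted p of 0.0598 to 0.0754). The share of all genes with an interaction at adjusted p below 0.05 was 0.0385% (Plus A), 0.811% (Trim A), 22.7% (Trim AG) and 0.966% (Trim AGU). The interaction of Arnt with Trim AGU was −0.68 with an SE of 0.441 (adjusted p = 0.377) and that of Vhl with Trim AG 0.20 (SE 0.0878, 0.122). For Vhl the interactions lay between 0.06 and 0.21 on the log2 scale, and none passed.

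With Trim AG the same 3 genes passed in both conditions. Vhl was lower than with miR-125b, by −0.45 in normoxia (SE 0.0579, adjusted p = 3.4e-04) and −0.24 in hypoxia (SE 0.0676, 0.0208). Egln2 was lower by −0.28 (SE 0.0521, 0.00286) and −0.30 (SE 0.0819, 0.0189), and Cited2 was higher by 0.37 (SE 0.0799, 0.00566) and 0.26 (SE 0.0779, 0.0282). The normoxia values held without each library, and without both libraries numbered 1 they were −0.49 (1.7e-04) for Vhl, −0.25 (0.00426) for Egln2 and 0.32 (0.0128) for Cited2. The hypoxia values of all 3 genes were lost without any 1 Hypoxia miR-125b library or without Hypoxia Trim AG replicate 3 (adjusted p of 0.0514 to 0.110). In normoxia Egln2 was at 78.0 to 80.9 CPM with miR-125b and at 64.7 to 69.6 CPM with Trim AG, and Cited2 at 171.2 to 195.3 CPM against 227.0 to 276.3 CPM, with no overlap in either.

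Vhl with Normoxia Trim AGU passed at −0.27 (SE 0.0832, adjusted p = 0.0428), lost without Normoxia miR-125b replicate 2 or 3 or Normoxia Trim AGU replicate 1 or 3 (up to 0.172), and it was −0.31 (0.0465) without both libraries numbered 1. With Trim A, Vhl was lower by −0.26 in normoxia (SE 0.0643, 0.0699) and −0.19 in hypoxia (SE 0.0614, 0.133) and passed in neither, though without both normoxia libraries numbered 1 the normoxia value was −0.31 (0.0347). Hif1a with Hypoxia Plus A passed at 0.21 (SE 0.0437, 0.0127), lost without any 1 Hypoxia miR-125b library (0.0556 to 0.0584) and with all libraries in 1 fit (0.419). For Hif1an the fitted values against miR-125b lay between 0.04 and 0.37 on the log2 scale, and it passed in none of the 8. The value for Hypoxia Trim AGU, 0.06, was −0.15 without Hypoxia Trim AGU replicate 3, and the mean CPM was 13.2 there and 13.3 in Hypoxia miR-125b. The largest of these, Hypoxia Trim A at 16.0 to 18.1 CPM against 13.0 to 13.8 CPM, had an SE of 0.0901 and an adjusted p of 0.0736.

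Epas1, Egln3 and Hif3a were too sparse for a test, and their reads are given as counts. Epas1 (ENSRNOG00000021318, chromosome 6, 10306405 to 10387265, plus strand), the α subunit of HIF-2, had 64 reads over the 15 hypoxia libraries with the 5 mimics, 21 over the 15 normoxia libraries and 5 over the 3 MC libraries. Under miR-125b it had 4, 6 and 8 reads in hypoxia and 1, 0 and 0 in normoxia, the pair in which it was called when no filter was used (adjusted p = 0.0245) and by DESeq2 (0.0436). Under Trim AG it had 2, 7 and 2 reads in hypoxia and 1, 0 and 0 in normoxia, which do not overlap but were not called in either way. Under Plus A, Trim A and Trim AGU the ranges overlapped. Egln3 (ENSRNOG00000005053, chromosome 6, 75050329 to 75075795, minus strand), the prolyl hydroxylase PHD3, had 39 reads over the 15 hypoxia libraries, 13 over the 15 normoxia libraries and 13 over the 3 MC libraries, of which 9 were in 1 library. It had no read in Normoxia Trim AGU. A count of 0 in 1 library allows up to 3 reads, 0.0703 to 0.106 CPM by counting error alone, and most values of both genes are at or near this limit. Hif3a (ENSRNOG00000017198, chromosome 1, 78976318 to 78997869, minus strand), the α subunit of HIF-3, had 4 reads in 1 hypoxia library and 5 over 3 normoxia libraries. The sums over the 15 libraries of each oxygen level were not tested.

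**Figure D5:**
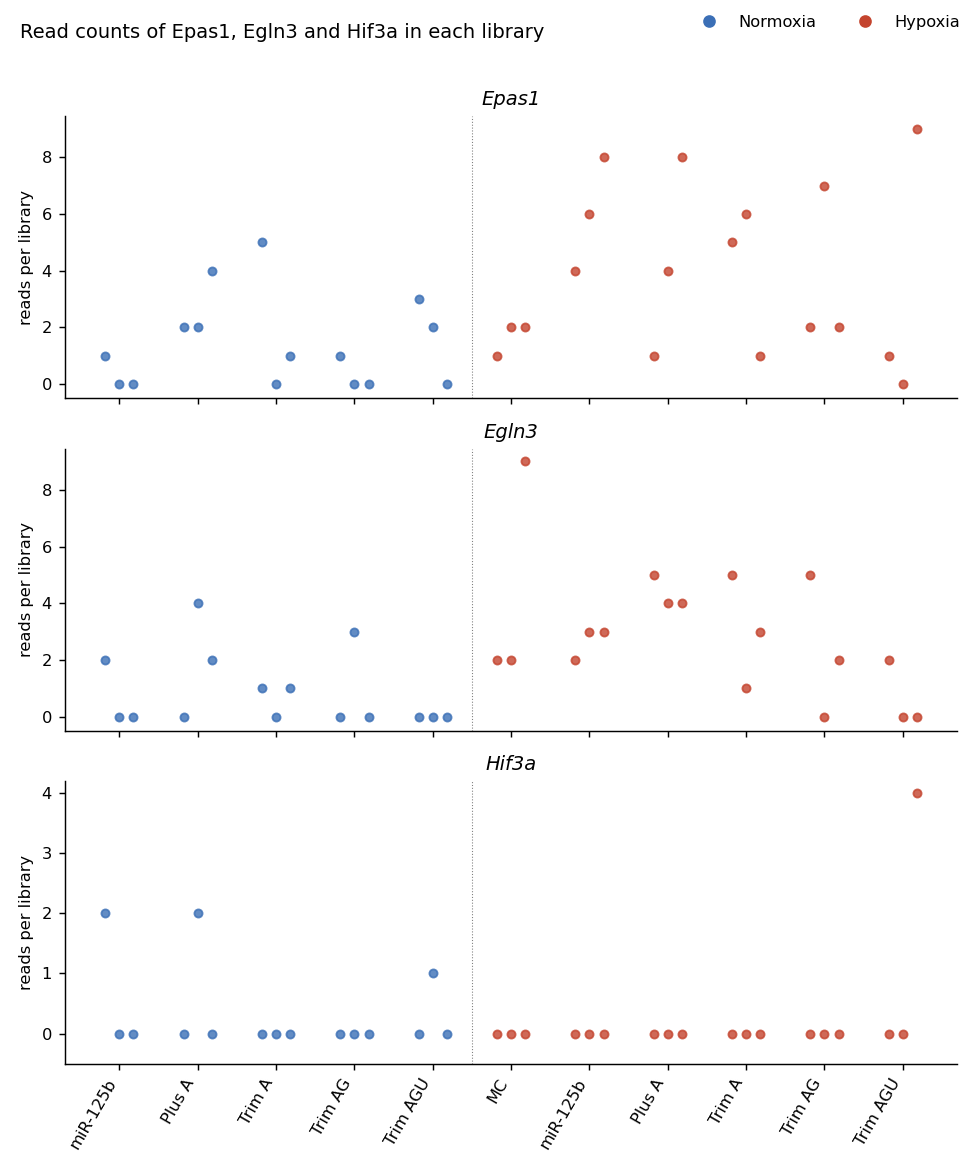
Reads per library (vertical axis, raw counts) of Epas1, Egln3 and Hif3a in the 33 libraries, by group; blue is normoxia and red hypoxia. No library holds more than 9 reads of any of them, and Epas1 has 64 reads in the 15 hypoxia libraries with the 5 mimics against 21 in the 15 normoxia libraries.

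The order of the 11 group means put Vhl highest in Hypoxia miR-125b (103.4 ± 4.19 CPM, SD, n = 3) and lowest in Normoxia Trim AG (47.5 ± 0.668 CPM). Hif1an ran from 20.7 ± 2.32 CPM in Normoxia Trim AGU to 13.2 ± 4.77 CPM in Hypoxia Trim AGU, and Arnt from 31.1 ± 1.75 CPM in Hypoxia MC to 15.7 ± 2.43 CPM in Normoxia Plus A. Cited2 ran from 248.9 ± 25.1 CPM in Normoxia Trim AG to 144.0 ± 25.7 CPM in Hypoxia Trim AGU. For Hif1a, as for Egln2, every pair of neighbours in this order overlapped. Hif1a ran from 147.8 ± 7.36 CPM in Hypoxia Plus A to 109.1 ± 33.4 CPM in Hypoxia Trim AGU. Groups further apart could still separate, as Hypoxia Plus A (140.5 to 155.2 CPM) and Hypoxia miR-125b (125.5 to 126.6 CPM) did for Hif1a. The last place of Hypoxia Trim AGU for Hif1an, Cited2 and Hif1a rests on the library that stood apart, the lowest of all libraries for each. For Hif1an and Hif1a, both other libraries of that group lay above the mean of the next-lowest group. For Cited2 they lay on either side of it. Across these 11 means of log2 CPM, which share libraries and normalization, the genes with the pattern most like Hif1a were Sertad2 (r = 0.947), Bptf (0.942) and AABR07059168.2 (0.934). Those most like Hif1an were Mum1l1 (0.984), AABR07049064.1 (0.950) and Fmr1 (0.945). Egln3 was too sparse for such a comparison. Among the genes themselves, the means of Vhl and Hif1an ran in opposite directions (r = −0.839) and those of Vhl and Hif1a showed almost no relation (r = −0.0733), both as descriptions over 11 groups. All these r values include the library that stood apart, and its part in them was not tested.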

How the data were processed

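Per the labels and the study's methods, poly-A RNA of H9C2 cells was sequenced without strand information, and the submitters' processing notes name HISAT2 and StringTie, while the genome build and their versions are not given in the sources used here. The authors deposited 12 tables, of which 11 hold raw read counts per gene together with FPKM values (fragments scaled to transcript length and library total), and 1 holds group means, a signal on the authors' own normalized scale with no value per library. No column of per-sample values was without a sample (0). The authors' own fold changes and p-values were not used.

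Counts of 33 libraries, 28361216 to 42672584 per library, were fitted with edgeR 4.0.16 (filterByExpr, TMM, glmQLFit and glmQLFTest) in R 4.3.3 with limma 3.58.1, each comparison on the libraries of its own groups, and p-values were adjusted by Benjamini-Hochberg over all genes tested. A gene was called at an adjusted p below 0.05 and at least 1.5-fold. Interactions were called on adjusted p alone. Depth limits a single library at a count of 0 to 3 counts, by counting error only. Alternatives were DESeq2 1.42.0, other scalings, no filter, a replicate block, all libraries in 1 fit, other fold limits and leaving out each library. The fits were tested on simulated data. Tables and plots were made with Python 3.11.15, numpy 2.4.6, pandas 2.3.3 and matplotlib 3.10.9.

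The genes and lists were chosen with earlier results of these data known. Named were the members, at most 3 genes with the largest and 3 with the smallest median log2 fold change of each list among those called in at least 3 of the 5 comparisons of hypoxia with normoxia, and for Hif1a and Hif1an the 3 genes of at least 1 CPM with the highest Pearson r over 11 groups. Ep300, Cul2, Tceb2 and Cav1 were named after their values were seen. A gene that this rule names is not reported here.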

Additional observations from a re-analysis of the deposited data

Results flagged for a closer look

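The effect of Trim AG against miR-125b on Arnt differed between hypoxia and normoxia by the test of the interaction itself. The interaction was −0.48 on the log2 scale (SE 0.148, edgeR adjusted p = 0.0333), from 0.50 in normoxia and 0.03 in hypoxia. Leaving out 1 library gave −0.58 to −0.33, with an adjusted p of up to 0.0754. Without Normoxia miR-125b replicate 1, whose Cav1 level was that of the Plus A libraries, the interaction stayed below an adjusted p of 0.05. Of all genes, 22.7% had such an interaction with Trim AG, so 1 of the 6 genes is no more than the background.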

How the results depend on the processing

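Of 132 fold changes and interactions of the 6 expressed genes, 38 passed on adjusted p, and 22 of the 38 kept that with each library left out. The count of calls for hypoxia against normoxia (5) was 14 without the fold limit and 0 at 2-fold, and stayed at 5 with each library left out. For the mimics against MC (1) it was 13 and 0 in the same way, 0 with DESeq2's size factors, 2 with library size alone, and 0 to 2 with 1 library left out. For the isomiRs against miR-125b (1) it was 10 and 0, 0 without both normoxia libraries numbered 1 (an alternative chosen after seeing the data), and 0 to 2 with 1 library left out. For the interactions (1) it was 2 with DESeq2 and 0 to 2 with 1 library left out. Arnt in Hypoxia Trim AGU against Hypoxia miR-125b reversed from −0.05 to 0.32 without Hypoxia Trim AGU replicate 2, and ranged from −0.35 to that value with 1 library left out. Library size alone moved the median log2 fold change of all genes to −0.15 for Hypoxia Trim AGU against MC and −0.11 against Hypoxia miR-125b, and to 0.12 for Plus A in hypoxia against normoxia. The replicate numbers are shared by the groups. Deviations of same-numbered libraries from their group means had r from −0.262 to 0.146, and 0 of 18 comparisons had every r over 0.1. With 3 libraries per group this cannot decide whether same-numbered libraries share a batch, and no source used here says what the numbers mean. With the replicate block the counts of calls were 5, 1, 1 and 1 in the same order, and 6 of 38 passes were lost. With all libraries in 1 fit, 12 of 37 were lost. Scaling the CPM by TMM moved 14 of 66 group means of the 6 expressed genes by more than 1 SD. Depth limits Epas1, Egln3 and Hif3a, with at most 9 counts in any library.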
